A study of Homo sapiens with 4 samples.

Results

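Transcript levels of 8 Krüppel-like factors (KLF1, KLF2, KLF3, KLF4, KLF6, KLF9, KLF10 and KLF11) were examined in differentiating human embryonic stem cells with and without a block of TGFβ signaling. The members were taken by gene symbol from a table of 58365 rows, and each symbol had 1 row. The cells were H1, an established line of human embryonic stem cells (hESCs), in a stepwise hematopoietic differentiation that ended at day 8. All cells received activin A and BMP4 for 2 days and then VEGF and bFGF for 3 days. In the last 3 days, still with VEGF and bFGF, the cells were grown with DMSO or with SB431542 (SB), an inhibitor of TGFβ type I receptors. Each group had 2 RNA-seq libraries, numbered 1 and 2, all from 1 line, and the samples are not stated to come from separate cultures, so that p-values measure the spread between these libraries only. The study describes collecting CD31+ cells, a step which the labels do not mention.

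KLF factors bind CACCC and GC-rich DNA through a conserved block of zinc fingers at the C terminus, and differ in the part that recruits coactivators or corepressors. KLF1 drives globin, heme and membrane genes in red cell precursors, where KLF3 opposes it at some of the same sites. KLF2 and KLF4 are induced in endothelium by blood flow through the kinase ERK5 and the MEF2 factors, and they raise vasoprotective genes. KLF10 and KLF11 were first described as TGFβ-inducible early genes and repress transcription through SIN3A. KLF6 is an early response gene of injured vessels, and KLF9 is induced by glucocorticoid.

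Expression is given in FPKM, fragments per kilobase of transcript scaled to library size, a unit that allows levels of different genes to be set side by side. Steps between low values put the depth at 19500000 to 25700000 fragments per library, lowest in SB replicate 1. The first principal component of all libraries (47.4% of the variance) separated the replicate numbers and the second (38.7%) separated the treatments. Each also shifted with the other factor. The first went from -41.6 in DMSO replicate 1 to -11.9 in SB replicate 1, and the second from -37.9 in SB replicate 1 to -10.4 in SB replicate 2. The mitochondrial share of summed FPKM was 5.88% and 6.64% in the libraries numbered 1, and 9.92% and 10.2% in those numbered 2. PECAM1, which encodes CD31, was present in every library (197 and 163 FPKM with DMSO, 182 and 153 FPKM with SB). The groups were compared with limma on log2(FPKM + 1), over 14909 genes with a mean of at least 1 FPKM in at least 1 group. All log2 fold changes below are SB minus DMSO on this scale, which understates the change of genes with low levels.

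By level, the order of the means over all 4 libraries was KLF6, KLF2, KLF1, KLF3, KLF10, KLF11, KLF4 and KLF9. KLF6, KLF2, KLF1 and KLF3 ranged from 17.2 to 50.7 FPKM, and each of them overlapped its next neighbor in the order. KLF3 and KLF10 overlapped as well. KLF10, KLF11, KLF4 and KLF9 took the last 4 places in the same order in every library, although the ranges of KLF10 (8.16 to 18.3 FPKM) and KLF11 (5.41 to 7.89 FPKM) came close. KLF4 and KLF9 lay near or below 1 FPKM throughout. The 8 members together summed to 159 and 135 FPKM with DMSO and to 142 and 128 FPKM with SB, out of 205, 174, 187 and 167 FPKM for all 18 KLF genes.

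None of the 6 tested members (0 of 6) passed an adjusted p of 0.05 in limma with group as the only term. That level was reached by 0.134% of all tested genes (0.0268% with SB higher and 0.107% with SB lower). For KLF10 and KLF2 the call differed when the replicate number was added as a block, as given with the processing alternatives. At an unadjusted p under 0.05, 1 of 6 passed (KLF10), against 9.96% of all genes. The groups did not overlap for KLF6 and KLF10, 2 of the 6 tested members, against 37.5% of the whole tested set, and for KLF9 among the 2 members below the limit for testing. The libraries separated instead by replicate number for 4 of the 6, against 52.6% of all genes. Those numbered 1 were higher for KLF1 and KLF2 (23.9% of all genes), as also for the untested KLF4, and those numbered 2 were higher for KLF3 and KLF11 (28.7%). Such shares are common in this table, and a gene can differ in both ways, as KLF2 did within each number. With 2 libraries against 2, an exact permutation test cannot go below a two-sided p of 0.333.

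**Figure D1:**
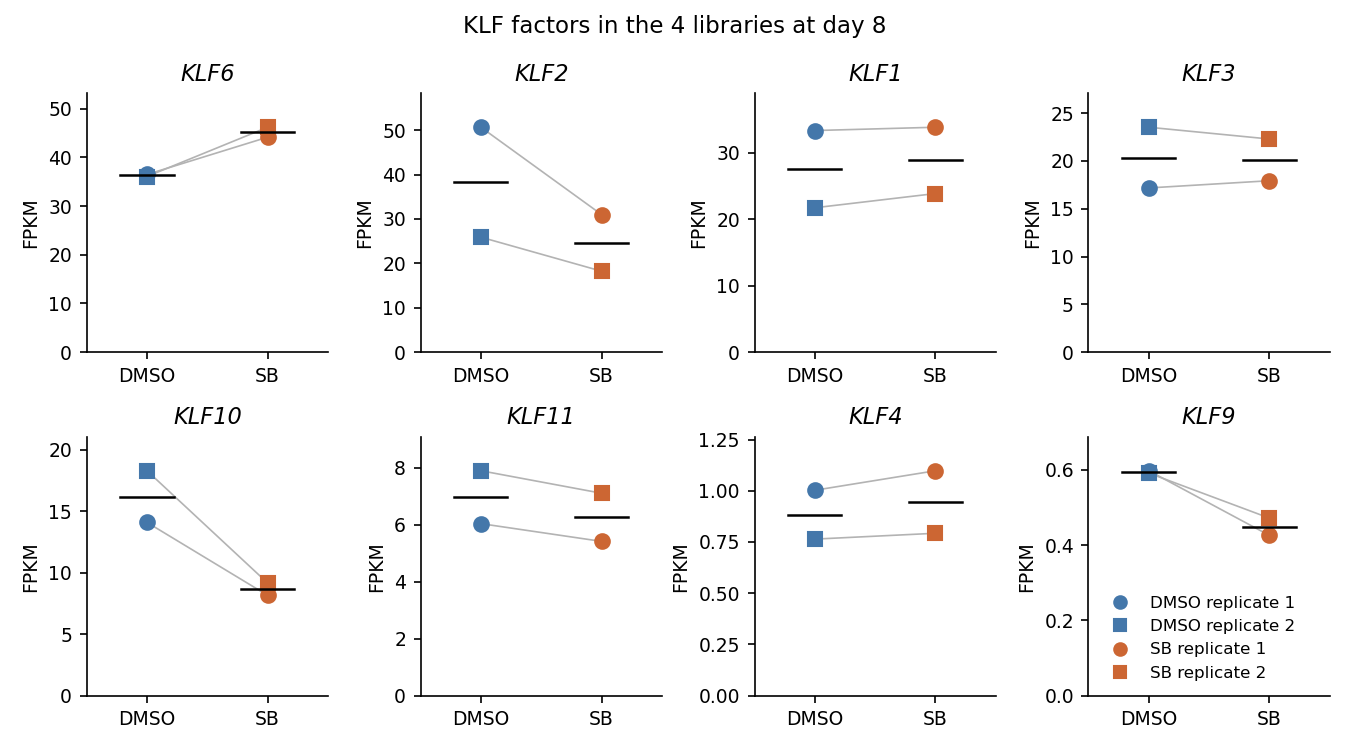
FPKM of each KLF factor in the 4 libraries, with its own linear axis from 0, circles for replicate 1, squares for replicate 2, black bars for group means and grey lines between libraries with the same number. The groups are apart for KLF6, KLF10 and KLF9, whereas the replicate numbers are apart for KLF2, KLF1, KLF3, KLF11 and KLF4.

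KLF10, the TGFβ-inducible repressor, showed the largest log2 fold change among the tested members. It stood at 14.1 and 18.3 FPKM in DMSO replicates 1 and 2, and at 8.16 and 9.17 FPKM in SB replicates 1 and 2. Both SB libraries were below both DMSO libraries, with means of 16.2 ± 2.97 and 8.67 ± 0.709 FPKM (SD, n = 2 each). The log2 fold change was -0.82 (SE 0.20, 95% interval -1.34 to -0.31, limma adjusted p 0.284, unadjusted p 0.0097). SB libraries held 57.9% of the matching DMSO level within number 1 and 50.1% within number 2. By unadjusted p it ranked 508 of 14909 genes, and 3.47% of the tested genes had a lower log2 fold change. The gene (ENSG00000155090.14, chromosome 8, 102648779 to 102655902, GRCh38) was covered by an estimated 448.5 to 1441 fragments per library, depending on the library and the transcript length assumed, a counting error of 2.63% to 4.72%.

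KLF11, its closest relative in the family, did not show the same separation. KLF11 (ENSG00000172059.10, chromosome 2, 10042849 to 10054836) stood at 6.04 and 7.89 FPKM with DMSO and at 5.41 and 7.10 FPKM with SB. Both libraries numbered 2 were above both numbered 1, and the groups overlapped. SB libraries held 89.7% and 90.0% of the DMSO level within numbers 1 and 2. The log2 fold change was -0.13 (SE 0.22, 95% interval -0.71 to 0.44, limma adjusted p 0.934). Its sign turned when DMSO replicate 2 (0.035) or SB replicate 1 (0.0348) was left out. The KLF11 values rest on an estimated 29.5 to 690 fragments per library, depending on the library and the transcript length assumed. That is a counting error of 3.81% to 18.4%, wider than that of KLF10. AC104794.4, an antisense gene that overlaps KLF11 by 416 bases, reached at most 0.371 FPKM.

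The ratio of KLF10 to KLF11 within a library, which does not depend on library scaling, was 2.34 and 2.32 with DMSO and 1.51 and 1.29 with SB. The DMSO libraries were nearly equal in this ratio and the SB libraries were both lower. Of the 28 ratios between members, which share their genes, the groups did not overlap in 14. Of the 7 ratios that involve KLF10, all built on the same KLF10 values, 6 had no overlap, the exception being KLF2 to KLF10. Single genes did not overlap in 37.5% of the tested set. The share for ratios over all genes was not computed, so these counts are a description only.

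**Figure D2:**
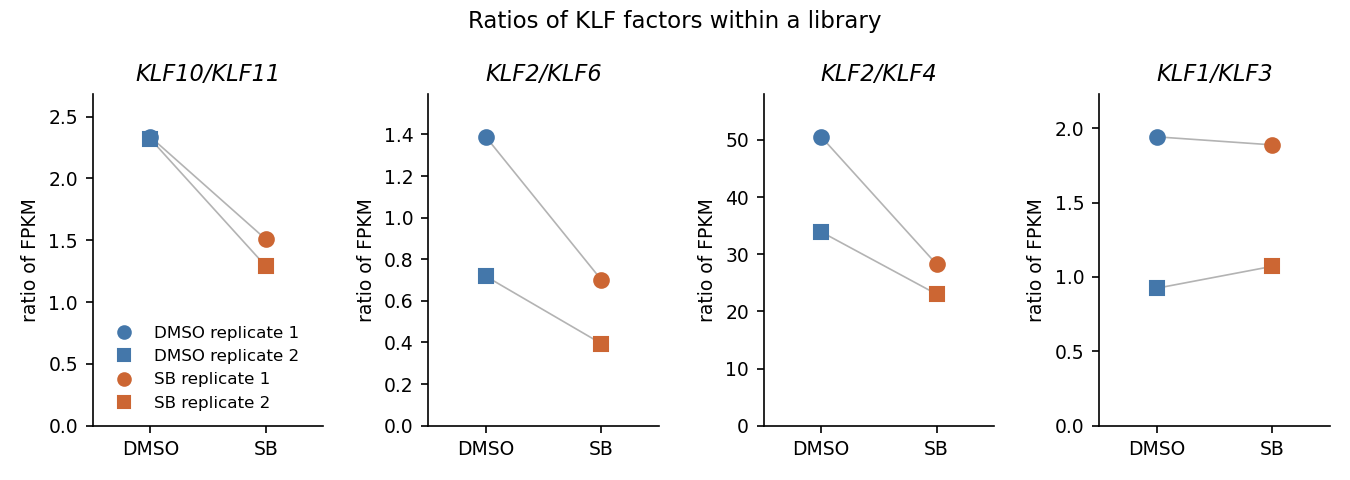
Ratio of FPKM between pairs of KLF factors within each library, on linear axes from 0, with circles for replicate 1, squares for replicate 2 and grey lines between libraries with the same number. KLF10/KLF11 is 2.34 and 2.32 with DMSO against 1.51 and 1.29 with SB, whereas KLF1/KLF3 differs by number (1.94 and 1.89 against 0.924 and 1.07).

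KLF10 and KLF11 belong to the early TGFβ response, which also holds inhibitory SMADs, the SKI family corepressor SKIL and the ID factors. Of 24 other listed genes of this response, 21 were tested, 1 fell at an adjusted p under 0.05 in limma and 0 rose. At an unadjusted p under 0.05, 14 of the 21 were lower and 0 were higher, against 5.16% and 4.8% of all tested genes. Both SB libraries were below both DMSO libraries in 16 of the 21, as in 16.0% of the whole tested set. The median log2 fold change was -0.87, against 0.04 over all tested genes. TGFBI, a secreted matrix protein, fell with SB431542, with 29.7 and 31.0 FPKM in the DMSO libraries and 4.10 and 4.93 FPKM in the SB libraries (log2 fold change -2.51, SE 0.17, limma adjusted p 0.036). This call was lost without the filter (limma adjusted p 0.3005) and when any 1 library was left out (0.137 to 0.182).

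The other named response genes did not pass the adjustment. SKIL stood at 7.77 and 11.1 FPKM with DMSO and at 2.10 and 2.00 FPKM with SB (log2 fold change -1.76, limma adjusted p 0.098). ID1, an inhibitor of basic helix-loop-helix factors, stood at 470 and 505 FPKM with DMSO and at 179 and 187 FPKM with SB (-1.41, limma adjusted p 0.080). For both genes the SB libraries lay far below the DMSO libraries. SMAD7, which feeds back on the receptor, stood at 29.3 and 19.6 FPKM with DMSO and at 7.23 and 3.40 FPKM with SB (-2.05, limma adjusted p 0.193). CCN2, a matricellular protein listed as CTGF, stood at 4.99 and 6.03 FPKM with DMSO and at 0.594 and 0.543 FPKM with SB (-2.05, limma adjusted p 0.075). The KLF10 difference was thus smaller on the log2 scale than those of TGFBI and these 4 genes. It was close to the median of the tested genes of the list (-0.87).

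Markers of other cells were lower as well. The 10 mesenchymal and smooth muscle markers summed to 784 and 642 FPKM with DMSO and to 516 and 425 FPKM with SB. Of the 9 tested, 6 were lower at an unadjusted p under 0.05, against 5.16% of all tested genes, with 0 past the adjustment. The 11 endoderm and liver markers summed to 342 and 347 FPKM with DMSO and to 79.7 and 51.1 FPKM with SB, and 4 of the 10 tested fell in limma (0 without the filter or with any 1 library left out). Over all tested genes, 0.107% fell in limma. At an unadjusted p under 0.05, 8 of the 10 tested endoderm and liver markers were lower and 0 higher, against 5.16% and 4.8% of all tested genes. None of these 21 markers was listed at 0 in all 4 libraries. Their part in the KLF10 and TGFβ response values was not tested, and in bulk RNA fewer cells of a type and less RNA per cell cannot be told apart.

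KLF6, the most abundant member on average, was the one member with clearly higher values in both SB libraries. KLF6 (ENSG00000067082.14, chromosome 10, 3775996 to 3785281) stood at 36.5 and 36.1 FPKM with DMSO and at 44.2 and 46.2 FPKM with SB. The groups did not overlap, and each pair of replicates agreed closely (36.3 ± 0.295 and 45.2 ± 1.44 FPKM, SD, n = 2 each). The log2 fold change was 0.31 (SE 0.15, 95% interval -0.09 to 0.71, limma adjusted p 0.645). SB libraries held 121% and 128% of the DMSO level within numbers 1 and 2. A higher log2 fold change was seen in 15.7% of the tested genes, so that a difference of this size was common.

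Genes known as KLF6 targets did not share this direction. Of 12 listed, all 12 were tested, 0 rose and 0 fell in limma, and 4 were lower and 0 higher at an unadjusted p under 0.05 (5.16% and 4.8% of all genes). The groups did not overlap in 7 with SB lower and in 1 with SB higher (16.0% and 21.5% of all genes), and the median log2 fold change was -0.32. ENG, the TGFβ co-receptor endoglin, stood at 64.2 and 47.9 FPKM with DMSO and at 17.8 and 14.7 FPKM with SB (log2 fold change -1.72, limma adjusted p 0.099). COL1A1, a chain of type I collagen, had a log2 fold change of -2.46 (limma adjusted p 0.065) and CDKN1A, a cell cycle inhibitor, of -0.72 (limma adjusted p 0.245). CDKN1A also stands on the TGFβ response list, and COL1A1, ENG and CDKN1A are known TGFβ-responsive genes as well. COL1A1 and COL1A2 also stand on the mesenchymal marker list given above, whose part in these values was not tested.

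KLF9, the glucocorticoid-induced member, was scarce. KLF9 (ENSG00000119138.4, chromosome 9, 70384597 to 70414624) stood at 0.598 and 0.592 FPKM with DMSO and at 0.426 and 0.472 FPKM with SB. Both SB libraries were lower, at 71.2% and 79.8% of DMSO within numbers 1 and 2. The values rest on an estimated 70.8 and 67.5 fragments with DMSO and 40.7 and 59.6 with SB, a counting error of 11.9% to 15.7% for each value, and the gene was below the limit for testing. The ratio of KLF6 to KLF9 was 61.0 in both DMSO libraries, and 104 and 97.9 in the SB libraries.

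Of the 13 glucocorticoid response genes, all 13 were tested, 0 rose and 0 fell in limma, 2 were higher and 3 lower at an unadjusted p under 0.05 (4.8% and 5.16% of all genes), and the median log2 fold change was 0.03. FKBP5, a chaperone of the receptor, stood at 8.40 and 10.2 FPKM with DMSO and at 14.3 and 14.6 FPKM with SB (log2 fold change 0.59, limma adjusted p 0.373). TSC22D3, a leucine zipper protein, stood at 36.3 and 38.7 FPKM with DMSO and at 29.8 and 34.9 FPKM with SB (-0.21, limma adjusted p 0.806). SGK1, a kinase, had a log2 fold change of -1.48 (limma adjusted p 0.080), ERRFI1, an inhibitor of EGF receptor signaling, of -0.89 (limma adjusted p 0.233) and TXNIP, a binder of thioredoxin, of -0.81 (limma adjusted p 0.247). The genes of this list lay on either side of 0.

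KLF2, the flow-induced endothelial factor, varied most between replicates. KLF2 (ENSG00000127528.5, chromosome 19, 16324817 to 16327874) stood at 50.7 and 25.9 FPKM with DMSO and at 31.0 and 18.2 FPKM with SB. Both libraries numbered 1 were above both numbered 2, at 185% of them on average, and the groups overlapped because SB replicate 1 exceeded DMSO replicate 2. SB libraries held 61.2% and 70.4% of the DMSO level within numbers 1 and 2. The log2 fold change was -0.59 (SE 0.41, 95% interval -1.66 to 0.49, limma adjusted p 0.764). Leaving out DMSO replicate 2 gave -1.06 and leaving out SB replicate 1 gave -0.95, but the value was -0.12 once DMSO replicate 1 was removed and -0.22 once SB replicate 2 was. The share of KLF2 among all 18 KLF genes was 24.7% and 14.9% with DMSO and 16.6% and 10.9% with SB, while that of KLF6 was 17.8% and 20.8%, then 23.6% and 27.6%.

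KLF2P1, a pseudogene copy of KLF2, was listed at 4.93 and 4.23 FPKM with DMSO and at 2.96 and 3.00 FPKM with SB. It made up 8.70% to 14.1% of the sum of both, and reads may have been split between them, so that the KLF2 level is uncertain by that much. KLF4, the relative that acts with KLF2 in endothelium, was low (ENSG00000136826.14, chromosome 9, 107484852 to 107490482). It stood at 1.002 and 0.764 FPKM with DMSO and at 1.10 and 0.792 FPKM with SB. These values rest on an estimated 9.3 to 61.7 fragments per library, and the gene was below the limit for testing. The ratio of KLF2 to KLF4 was 50.6 and 33.9 with DMSO and 28.2 and 23.0 with SB, lower in both SB libraries.

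**Figure D3:**
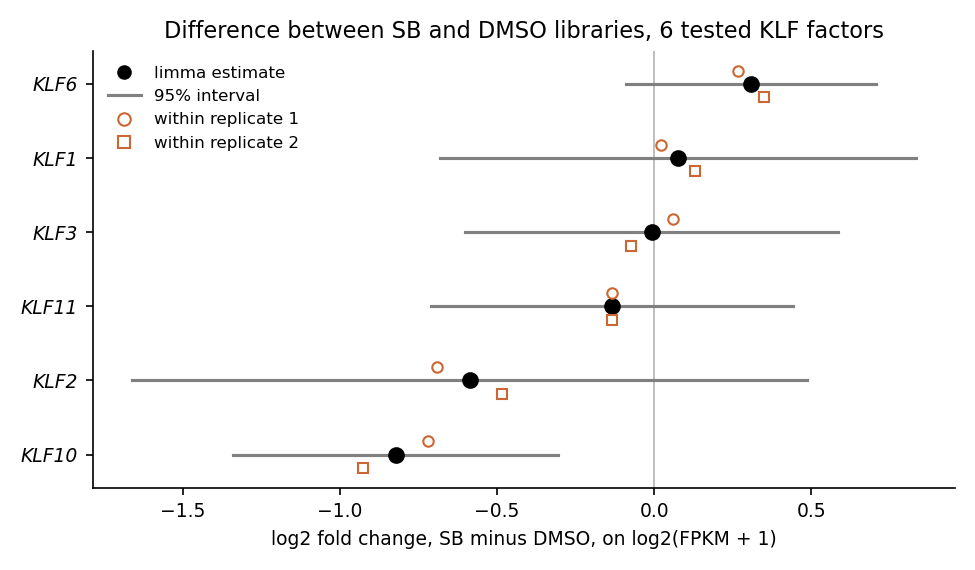
Log2 fold change of SB over DMSO on log2(FPKM + 1) for the 6 tested KLF factors, with the limma estimate (black), its 95% interval (grey) and the differences within replicate numbers 1 (open circle) and 2 (open square). The unadjusted interval of KLF10 (-1.34 to -0.31) lies below 0, and those of the other 5 include 0.

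The MEF2 factors reach KLF2 through a site in its promoter, and the sequence upstream of the RefSeq start site is therefore shown for KLF2 (GRCh38.p14, chr19:16324576-16324816, plus strand, from -250 to -10, where the annotated transcript begins). Capitals mark the GC box GGGCGG and the MEF2-type motif (CTA and TAG with any 4 bases between them), and the first run of capitals holds a pair of adjoining GC boxes.
KLF2: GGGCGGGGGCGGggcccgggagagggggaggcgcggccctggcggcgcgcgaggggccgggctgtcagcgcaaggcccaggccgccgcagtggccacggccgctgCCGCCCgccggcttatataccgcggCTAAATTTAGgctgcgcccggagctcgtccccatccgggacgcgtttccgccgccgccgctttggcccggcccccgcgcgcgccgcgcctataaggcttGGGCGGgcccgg
The MEF2-type motif began at -120, and motifs of this form were found in 2.36% of 35116 RefSeq windows of 250 bases. GC boxes began at -250, -244, -145 and -21, and 42.6% of windows held at least 1 while 7.63% held at least 4. Letters on either strand were counted, and the MEF2-type motif was added after the sequence had been read. A match describes the sequence only, and no binding was measured.

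Of the 16 genes of the ERK5 and MEF2 axis, 15 were tested, and 0 rose and 0 fell in limma. The list holds the MEF2 factors beside HDAC7, which represses them, so that its counts and median mix opposite roles. At an unadjusted p under 0.05, 1 was higher and 0 lower (4.8% and 5.16% of all genes). The median log2 fold change was -0.03. MEF2C, the MEF2 factor that differed most, stood at 39.9 and 42.1 FPKM with DMSO and at 77.8 and 70.5 FPKM with SB (log2 fold change 0.84, limma adjusted p 0.205). HEG1, a junctional receptor, had a log2 fold change of -0.46 (limma adjusted p 0.513) and HDAC7, a deacetylase that represses MEF2, of -0.29 (limma adjusted p 0.719). MEF2C was therefore higher in both SB libraries while KLF2 was lower within each replicate number.

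Of 20 endothelial genes known to follow KLF2 and KLF4, 18 were tested, 1 rose, 0 fell, and 4 were higher and 5 lower at an unadjusted p under 0.05 (4.8% and 5.16% of all genes). The median log2 fold change was -0.03. THBS1, an antiangiogenic matrix glycoprotein, rose with SB431542, with 17.2 and 16.1 FPKM in the DMSO libraries and 78.9 and 71.6 FPKM in the SB libraries (log2 fold change 2.11, SE 0.16, limma adjusted p 0.046). Without the filter the limma adjusted p was 0.3005, and with 1 library left out it was 0.149 to 0.228. EDN1, the vasoconstrictor endothelin, stood at 3.28 and 4.31 FPKM with DMSO and at 0.233 and 0.154 FPKM with SB (-2.00, limma adjusted p 0.084). NQO1, an antioxidant enzyme, stood at 30.2 and 31.1 FPKM with DMSO and at 57.6 and 59.7 FPKM with SB (0.92, limma adjusted p 0.167). For all 3 genes the groups were far apart.

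Other endothelial genes of this kind varied in how far the groups lay apart. NOS3, endothelial nitric oxide synthase, stood at 79.8 and 34.1 FPKM with DMSO and at 102 and 43.6 FPKM with SB (log2 fold change 0.35, limma adjusted p 0.933). NOS3 differed by replicate number in the direction of KLF2, and by treatment in the other direction within each number. THBD, the anticoagulant thrombomodulin, stood at 22.5 and 16.4 FPKM with DMSO and at 17.8 and 15.4 FPKM with SB (-0.21, limma adjusted p 0.871). CDH5, VE-cadherin of endothelial junctions, stood at 273 and 246 FPKM with DMSO and at 224 and 202 FPKM with SB (-0.28, limma adjusted p 0.710), and PECAM1 had a log2 fold change of -0.11 (limma adjusted p 0.943). ASS1, which makes the arginine precursor of nitric oxide, was chosen after its values were seen and stood at 6.19 and 3.11 FPKM with DMSO and at 1.23 and 0.974 FPKM with SB (-1.37, limma adjusted p 0.274), without overlap. The 13 endothelial markers summed to 2620 and 2206 FPKM with DMSO and to 2580 and 2209 FPKM with SB, so that their sum followed the number and hardly the treatment, and their part in the KLF2 values was not tested.

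KLF1, the erythroid activator, showed no separation by treatment. KLF1 (ENSG00000105610.4, chromosome 19, 12884423 to 12887181) stood at 33.4 and 21.7 FPKM with DMSO and at 33.9 and 23.9 FPKM with SB. Both libraries numbered 1 were above both numbered 2, and SB libraries held 101% and 110% of the DMSO level within the numbers. The log2 fold change was 0.08 (SE 0.29, 95% interval -0.68 to 0.83, limma adjusted p 0.977), and it took the other sign without DMSO replicate 2 (-0.22) or SB replicate 1 (-0.17). KLF3, the opposing repressor (ENSG00000109787.12, chromosome 4, 38664196 to 38701042), stood at 17.2 and 23.5 FPKM with DMSO and at 17.9 and 22.3 FPKM with SB. Its libraries numbered 2 were the higher ones, and its log2 fold change was -0.01 (SE 0.23, 95% interval -0.60 to 0.59, limma adjusted p 0.998), or 0.21 without DMSO replicate 2 and 0.14 without SB replicate 1. KLF3-AS1, which overlaps KLF3 by 688 bases on the other strand, stood at 2.32 to 2.96 FPKM, and the 2 cannot be told apart there where strand was not used in counting.

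The ratio of KLF1 to KLF3 was 1.94 and 0.924 with DMSO and 1.89 and 1.07 with SB. It differed by replicate number and overlapped between groups. With intervals as wide as those given for both genes, equal levels in the 2 groups were not shown.

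**Figure D4:**
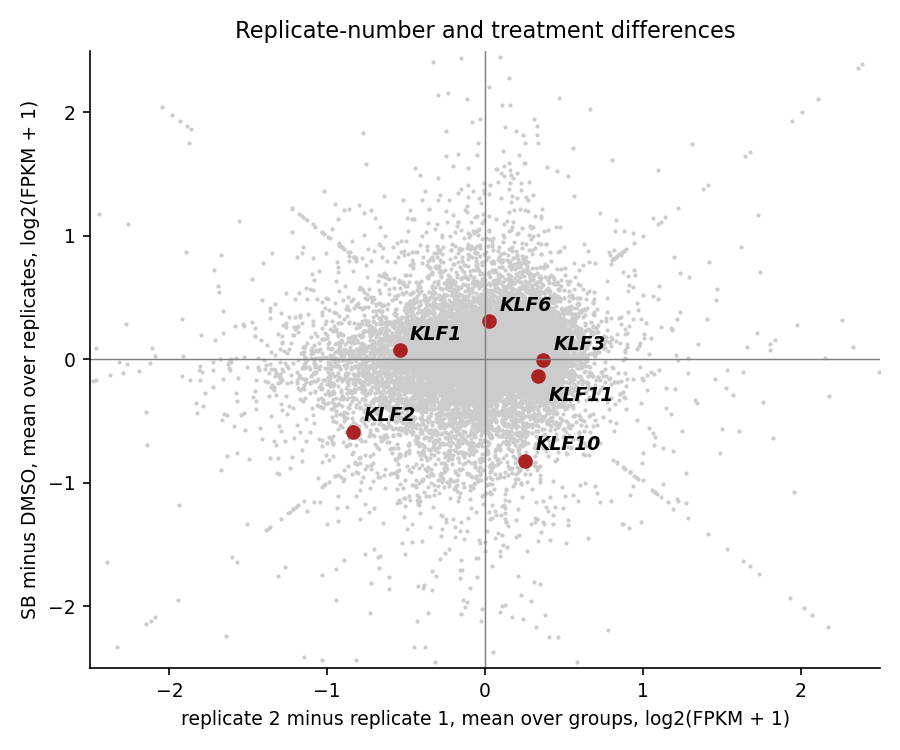
Each tested gene by its difference between replicate numbers (replicate 2 minus 1, x axis) and between treatments (SB minus DMSO, y axis), both means on log2(FPKM + 1), with the KLF factors in red and 72 genes beyond 2.5 on either axis not drawn. KLF2 lies low and to the left (-0.84 by number, -0.59 by treatment), KLF10 lies low (0.25, -0.82) and KLF1 lies left (-0.54, 0.08).

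The erythroid promoter of KLF1 is known to depend on GATA1, and its upstream sequence is shown for that reason (RefSeq, GRCh38.p14, chr19:12887202-12887451, minus strand, from -250 to -1). Capitals mark the CCAAT box, the SMAD box (CAGAC) and the GATA motif (GATAA) on either strand, and the first run joins a CCAAT box with a reversed SMAD box.
KLF1: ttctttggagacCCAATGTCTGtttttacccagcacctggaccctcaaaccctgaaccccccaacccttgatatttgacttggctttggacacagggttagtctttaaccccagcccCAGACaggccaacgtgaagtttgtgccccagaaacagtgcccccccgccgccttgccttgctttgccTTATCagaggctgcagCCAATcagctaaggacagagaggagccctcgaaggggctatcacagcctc
GATAA lay on the opposite strand at -66 and was found in 20.4% of all windows, and the letters of this motif were shortened after the sequence had been read. CCAAT lay at -238 and -50 (32.0% of windows) and CAGAC at -233 and -133 (38.0% of windows). The KLF6 window is shown for contrast, as the member that stood higher with SB (chr10:3785282-3785459, minus strand, from -250 to -73), with capitals for GGGCGG and CCAAT.
KLF6: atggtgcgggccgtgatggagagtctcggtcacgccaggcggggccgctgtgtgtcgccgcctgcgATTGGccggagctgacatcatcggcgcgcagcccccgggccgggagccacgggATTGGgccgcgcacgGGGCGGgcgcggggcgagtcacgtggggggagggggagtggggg
The stretch shown, which ends where the annotated transcript begins, held 1 GC box (-116) and 2 CCAAT boxes (-184 and -131). Another GC box of the KLF6 window began at -61, past that stretch. At least 1 GC box was found in 42.6% of all windows and at least 1 CCAAT box in 32.0%. Windows were read for 6 members, not for KLF3 or KLF10, and those of KLF4, KLF9 and KLF11 are not shown.

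Of 31 erythroid genes known as KLF1 targets, 25 were tested, and 0 rose and 0 fell in limma. At an unadjusted p under 0.05, 9 were lower and 1 was higher (5.16% and 4.8% of all genes), the groups did not overlap in 11 with SB lower and in 4 with SB higher (16.0% and 21.5%), and the median log2 fold change was -0.32. ALAS2, the first enzyme of heme synthesis in red cells, stood at 53.3 and 46.4 FPKM with DMSO and at 11.7 and 10.7 FPKM with SB (log2 fold change -2.06, limma adjusted p 0.060). HBZ, embryonic zeta globin, stood at 146 and 109 FPKM with DMSO and at 33.2 and 24.1 FPKM with SB (-2.12, limma adjusted p 0.091). HBE1, embryonic epsilon globin, stood at 614 and 676 FPKM with DMSO and at 460 and 524 FPKM with SB (-0.39, limma adjusted p 0.543), and AQP1, a water channel, had a log2 fold change of -1.18 (limma adjusted p 0.141). ALAS2, HBZ, HBE1 and AQP1 were lower in both SB libraries while KLF1 itself was not. DMTN, the 1 target higher at an unadjusted p under 0.05, went the other way and was chosen after its values were seen. It stood at 9.40 and 5.41 FPKM with DMSO and at 17.0 and 12.0 FPKM with SB (0.91, limma adjusted p 0.451).

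Of the factors that act with KLF1, all 10 listed were tested, 0 rose and 0 fell in limma, 3 were higher and 0 lower at an unadjusted p under 0.05 (4.8% and 5.16% of all genes), and the median log2 fold change was 0.37. The groups did not overlap in 5 of the 10 with SB higher and in 0 with SB lower, against 21.5% and 16.0% of all genes. They overlapped in the other 5, LMO2 (-0.04) and LDB1 (-0.06) among them, a pair chosen after their values were seen. GATA1, the master erythroid and megakaryocyte factor, stood at 42.8 and 40.9 FPKM with DMSO and at 63.0 and 62.7 FPKM with SB (log2 fold change 0.58, limma adjusted p 0.322). GFI1B, a repressor of the same lineages, stood at 28.2 and 21.8 FPKM with DMSO and at 76.3 and 64.5 FPKM with SB (1.47, limma adjusted p 0.117), and NFE2 had a log2 fold change of 0.54 (limma adjusted p 0.433). GATA1 and GFI1B were higher in both SB libraries, and neither passed the adjustment.

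Of the markers of neighboring lineages, 0 rose and 0 fell in limma. The 15 erythroid markers share genes with the KLF1 targets. They summed to 1722 and 2093 FPKM with DMSO and to 1382 and 1713 FPKM with SB. At an unadjusted p under 0.05, 6 of the 12 tested were lower and 1 higher, against 5.16% and 4.8% of all tested genes. The 10 megakaryocyte markers summed to 267 and 257 FPKM with DMSO and to 657 and 749 FPKM with SB, with 8 of 10 higher at that level. The 10 leukocyte markers summed to 129 and 104 FPKM with DMSO and to 270 and 238 FPKM with SB, with 4 of the 6 tested higher at that level. None of the markers in these 3 lists was listed at 0 in all 4 libraries, and their part in the KLF1 values was not tested.

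**Figure D5:**
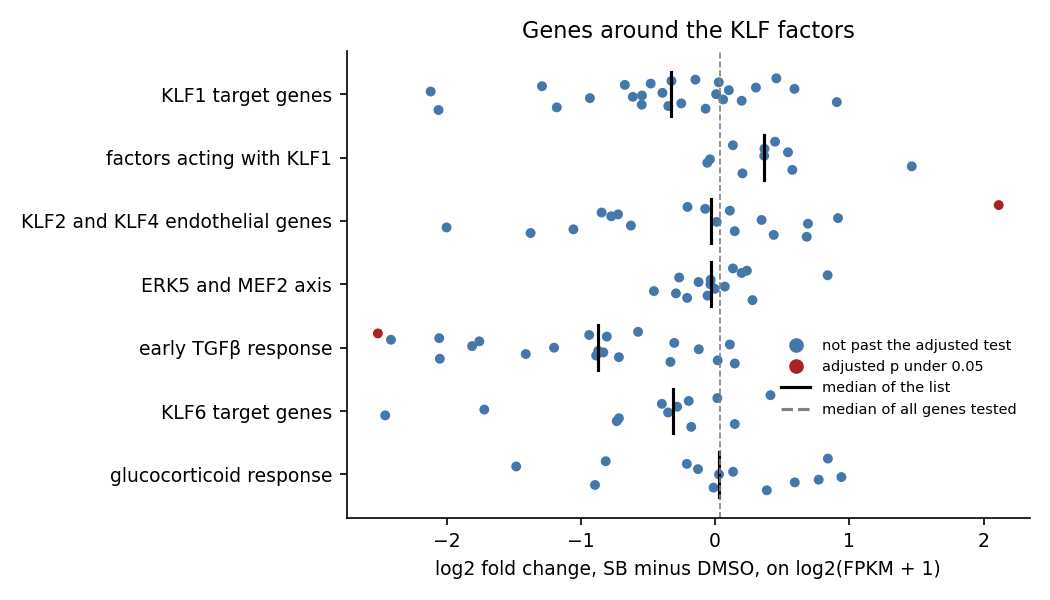
Log2 fold change (SB minus DMSO, log2(FPKM + 1)) of each tested gene in 7 lists around the KLF factors, with black bars for list medians, a dashed line for the median of all tested genes (0.04), red for genes with an adjusted p under 0.05 and vertical scatter within a list for visibility only. The early TGFβ response has the lowest median (-0.87) and the factors acting with KLF1 the highest (0.37), and the red points are THBS1 and TGFBI.

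Of the other 10 KLF genes, 7 were tested, 0 rose and 0 fell in limma, and the median log2 fold change was -0.14. At an unadjusted p under 0.05, 1 was higher (KLF15) and 0 lower (4.8% and 5.16% of all genes). The groups did not overlap in 2 of the 7 with SB higher and in 4 with SB lower, against 21.5% and 16.0% of all genes. KLF15 stood at 0.538 and 0.484 FPKM with DMSO and at 1.33 and 1.24 FPKM with SB (log2 fold change 0.60, limma adjusted p 0.477), KLF7 had a log2 fold change of -0.26 (limma adjusted p 0.759) and KLF5 of -0.32 (limma adjusted p 0.760), while KLF14 and KLF18 were listed at 0 in all libraries. Of the 9 related SP factors, 6 were tested, 0 rose and 0 fell, and the median was 0.08. Among the 6 tested, the groups did not overlap in 1 with SB lower, against 16.0% of all genes, and in 0 with SB higher. This was SP6, at 18.03 and 17.1 FPKM with DMSO and at 7.36 and 6.75 FPKM with SB (-1.21, limma adjusted p 0.106). SP1 (0.09, limma adjusted p 0.965) and SP5 (0.25, limma adjusted p 0.966) overlapped. Of the scarce untested factors, SP8 (0.998 and 0.690 FPKM with DMSO, 0.545 and 0.395 FPKM with SB) and SP9 were also lower in both SB libraries, and SP7 overlapped.

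Among 10003 tested genes with a mean of at least 5 FPKM, those nearest to each member were found by the Euclidean distance of centered log2(FPKM + 1) over the 4 libraries. TXNIP (152, 183, 89.7 and 99.2 FPKM in DMSO 1, DMSO 2, SB 1 and SB 2) and AL713998.1 were nearest to KLF10, at distances of 0.060 and 0.074. IRF2BPL (0.048) and TUBB2B (0.049) were nearest to KLF2. LIMD2 and CLIP2 were nearest to KLF1, NAB1 and NORAD to KLF3, TNIP1 and OSGEP to KLF6, and SMC6 and CTNNAL1 to KLF11. Within a distance of 0.3 lay 73 genes for KLF10 and 111 for KLF2, against 1145 for KLF1, 2141 for KLF11, 2238 for KLF6 and 2678 for KLF3. The patterns of KLF10 and KLF2 were thus the less common ones in this table, with only 4 libraries behind each distance.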

How the data were processed

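RNA of 4 libraries (2 DMSO, 2 SB) was sequenced from Illumina TruSeq libraries, and the authors deposited FPKM values in 58365 rows with 1 column per library. The submitters' processing notes name BWA, Bowtie, RSEM and hg19 without versions or roles, but 95.5% of the gene identifiers matched GENCODE release 29 (GRCh38) down to the version, with equal positions for 99.8% of the matches. Coordinates are therefore GRCh38, 1-based. Whether counting was stranded is not given in the sources used here, and overlapping antisense genes are uncertain.

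Groups were taken from sample titles. FPKM was transformed to log2(FPKM + 1), with a filter of a mean of at least 1 FPKM in at least 1 group, and compared with limma 3.58.1 in R 4.3.3 (empirical Bayes with trend, group as the only term, two-sided, Benjamini-Hochberg over 14909 genes, threshold 0.05). Count tests do not apply to FPKM and were not run. The fit was tested on simulated data. No set test was run, and lists are described by counts and medians. Fragment totals were recovered from values of single-exon genes with few fragments, 93.0% to 94.8% of which lay within 0.05 of a whole number. Fragments per gene follow from them and annotated transcript lengths, and their errors cover counting only.

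The members and lists were chosen with earlier results of these data known. Named genes are the members, fixed genes of each list, those past the adjusted p, the 3 with the smallest unadjusted p per list and the 2 nearest to each tested member, and 1 fixed gene is not reported here. Marker lists are given by counts and summed levels. Upstream sequences and 8 motifs were read from RefSeq (GRCh38.p14). As alternatives, a block by replicate number, upper-quartile scaling, quantile normalization, a pseudocount of 0.1, no filter, a stricter filter (2 or more libraries with 5 FPKM or more) and leaving out 1 library at a time were tried.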

Additional observations from a re-analysis of the deposited data

How the results depend on the processing

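The count of genes past the adjustment (20 in limma) stayed within 1.5 times of that under a pseudocount of 0.1, the stricter filter and upper-quartile scaling. It was 31 after quantile normalization and 0 in limma without the filter, when 29447 rows were tested and 2739 had an unadjusted p under 0.05, and ranged from 0 to 14 when 1 library was left out (0 in limma without DMSO replicate 1, where 1168 had an unadjusted p under 0.05, 10 without SB replicate 1, 9 without SB replicate 2). Leaving out a library left 1 sample in a group, which was assumed to vary like the other group. The count of KLF members past the adjustment was 0 in limma under each of these settings, with 0 to 2 at an unadjusted p under 0.05. With the replicate number as a block, 1564 genes (10.5%, with 4.99% lower) and 2 members passed, KLF10 (limma adjusted p 0.019) and KLF2 (limma adjusted p 0.028), while KLF6 did not (limma adjusted p 0.066). The labels do not say what the numbers share, and there are only 2 pairs, whose deviations from the group means correlated at 0.53, so the block was not used for the values above.

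Without 1 library at a time, the log2 fold change ranged from -1.0 to -0.65 for KLF10, from -1.06 to -0.12 for KLF2 and from 0.28 to 0.34 for KLF6. It crossed 0 for KLF1 (-0.22 to 0.37; -0.22 without DMSO replicate 2 and -0.17 without SB replicate 1), KLF3 (-0.22 to 0.21; 0.21 and 0.14) and KLF11 (-0.30 to 0.035; 0.035 and 0.0348). The cause was not tested. KLF4 and KLF9 were below the limit in the full set and were fitted without a filter, with log2 fold changes of 0.05 (limma adjusted p 0.973) and -0.14 (limma adjusted p 0.765).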

Other observations

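Of 17 corepressors and coactivators through which KLF factors act, all 17 were tested, and 0 rose and 0 fell in limma. An unadjusted p under 0.05 was seen in 0 of them (9.96% of all genes), and the median log2 fold change was 0.15. The groups did not overlap in 5 with SB higher and in 3 with SB lower, against 21.5% and 16.0% of all genes. FBXW7, a ubiquitin ligase subunit, had a log2 fold change of -0.36 (limma adjusted p 0.729), FHL3, a partner of KLF3, of -0.28 (limma adjusted p 0.737) and RBBP7, a histone binding subunit, of 0.22 (limma adjusted p 0.812). CTBP1, the corepressor bound by KLF3, stood at 204 and 86.4 FPKM with DMSO and at 193 and 92.0 FPKM with SB, which separated the replicate numbers and not the groups, and was chosen after its values were seen.

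KLF2, KLF4, KLF6 and KLF10 are also known as early response genes. Of 14 immediate-early genes, all 14 were tested, 0 rose and 0 fell in limma, and the median log2 fold change was 0.19. At an unadjusted p under 0.05, 1 was higher and 1 lower (4.8% and 5.16% of all genes). FOS, a subunit of AP-1, stood at 99.8 and 87.1 FPKM with DMSO and at 170 and 153 FPKM with SB (log2 fold change 0.78, limma adjusted p 0.245). IER3 had a log2 fold change of -0.61 (limma adjusted p 0.499) and EGR3 of 0.55 (limma adjusted p 0.513). The 7 pluripotency markers summed to 113 and 127 FPKM with DMSO and to 147 and 160 FPKM with SB. Of the 5 tested, 2 were higher at an unadjusted p under 0.05, against 4.8% of all genes.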
